A study of Saccharomyces cerevisiae with 18 samples.

Results

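The mitochondrial respiratory chain and the ATP synthase of yeast were described as a set of 43 nuclear genes, chosen by gene symbol from the platform annotation, with the manufacturer's control probe sets left out. The array measured 5763 probe sets outside those controls, which named 5449 genes, and each of the 43 genes had 1 probe set. The genes comprised 3 NADH dehydrogenases, 3 other dehydrogenases, 4 subunits of complex II, 9 of complex III, 2 cytochromes c, 9 subunits of complex IV and 13 genes of the ATP synthase, its inhibitor included. Cultures of BY4743, a diploid laboratory strain (his3Δ1/his3Δ1, leu2Δ0/leu2Δ0, ura3Δ0/ura3Δ0, met15Δ0/MET15, LYS2/lys2Δ0), were exposed for 20 min to 1 of 6 commercial extracts of Equisetum arvense (field horsetail) at 2.5 mg/mL. The extracts are named USA2, USA6, USA7, CHINA8, EUROPE11 and INDIA13 by their labelled origin, and the control cultures received no extract. There were 4 control arrays, 4 CHINA8 arrays and 2 arrays of each other extract, 18 in all. Each extract is 1 commercial product. The products carried a filler that went with origin (dicalcium phosphate for USA and INDIA, glucose for CHINA, lactose monohydrate for EUROPE), which the study removed as insoluble matter in aqueous methanol; the sources used here do not say whether soluble filler was left.

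Yeast has no proton-pumping complex I. Single-chain NADH dehydrogenases on either face of the inner membrane, succinate dehydrogenase and the glycerol 3-phosphate dehydrogenase pass electrons to ubiquinone, complex III hands them to cytochrome c, complex IV reduces oxygen, and the ATP synthase uses the proton gradient. The lactate dehydrogenases feed cytochrome c directly. Many of these genes are repressed by glucose and activated by heme and the Hap transcription factors, and several subunits exist as paralog pairs used at high or low oxygen.

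All values were log2 signals in which the distributions of the arrays had been made alike, so differences are relative to the other genes of the same array. Array medians lay between 9.55 and 9.64, and the median change of all probe sets was 0.02 on the log2 scale. The deleted LEU2 read between 3.31 and 3.98 and URA3 between 3.12 and 3.34 over the 18 arrays, on a table that ran from 2.73 to 14.49. The sample titles open with 1 of 2 dates, used here as batches: batch 1 held 2 control and 2 CHINA8 arrays, and batch 2 held all others. The 2 control and 2 CHINA8 arrays of batch 2 also stood apart in a probe measure of RNA, the 3′ minus the 5′ log2 signal of 18S rRNA, at -1.54 to -1.12 against -2.85 to -2.08 on the other 14 arrays. Its part in the results was not tested. Counts without those 4 arrays are given for the comparisons with control and for the F-test among extracts, not for the pair USA7 and CHINA8 or the gene lists. Every comparison with control shares the same 4 control arrays, and p-values measure the spread between these cultures. Where the extracts are pooled, that spread includes differences between extracts, and arrays of the same extract count as separate.

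By Benjamini-Hochberg adjustment, 24 of the 43 respiratory genes were lower in extract-treated cultures, 19 did not pass and none was higher. The question was whether the extracts as a class changed the transcriptome, so 12 extract arrays were set against the 4 control arrays. USA6 was left out, as in the study, because a grouping of these same arrays had placed it with the controls. That choice used the outcome, and with USA6 added the counts were the same, 1 and 24. By limma with Bonferroni adjustment over 5763 probe sets, 1 of the 43 genes (2.33%) was lower and 0 were higher, where 1.49% of all probe sets were lower. With Benjamini-Hochberg adjustment the 24 genes lower were 55.8% of the 43, where 14.5% of all probe sets were lower and 15.4% higher. Among the 1347 probe sets with a mean signal of 11 or more, a range chosen after the data were seen that held 36 of the 43 genes, 14.3% were lower. The median difference of the 43 genes was -0.28, from -1.57 to 0.01, and 42 of them were negative. In 8 genes (CYB2, GUT2, SDH2, QCR8, RIP1, COX4, COX5B and INH1) all 12 extract arrays lay below all 4 controls, which held for 5.01% of all probe sets. With batch as a block 29 genes were lower (14.8% of all probe sets), and in batch 2 alone 19 (9.67%). Without the 4 control and CHINA8 arrays of batch 2 the count was 9 (8.4% of all probe sets), namely NDE2, NDI1, CYB2, GUT2, COR1, QCR8, RIP1, COX5B and COX6. Leaving out the first control array of batch 2 gave 15 (10.7%).

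Per array, the median over the 43 genes of the difference from the control mean was between -0.49 and -0.19 on the 14 extract arrays. On the 4 control arrays it was -0.06, -0.03, 0.05 and 0.07, the batch 1 pair below and the batch 2 pair above. Against the controls of their own batch the extract arrays lay between -0.48 and -0.27. The smallest departure from the mean of all controls was on the second USA6 array and the largest on the first CHINA8 array of batch 1.

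Of the NADH dehydrogenases NDE2 and NDI1 fell, and NDE1 did not pass. NDE2, which oxidizes cytosolic NADH at the outer face of the inner membrane, read 8.81, 8.26, 7.71 and 8.89 on the controls and 5.74 to 7.74 on the 12 extract arrays, with a median of 6.92. The first EUROPE11 array, at 7.74, was above the lowest control, and the other 11 extract arrays lay below every control. NDE2 was 2.96-fold lower, a log2 difference of -1.57 ± 0.30 (SE), with an adjusted p of 0.00101. It was the largest fall among the 43 genes, and it was -1.27 ± 0.33 within batch 2 (adjusted p = 0.0204). NDE1, the paralog with the same reaction, read 11.98, 11.66, 11.85 and 11.84 on the controls and 11.27 to 12.21 on the extract arrays, with a median of 11.79. The groups overlapped, with 4 of 12 extract arrays below the lowest control, and the difference was -0.07 ± 0.13 with an adjusted p of 0.716. NDI1, which oxidizes NADH on the matrix side, was -0.58 ± 0.14 (adjusted p = 0.00578), with 11 of 12 extract arrays below the lowest control.

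Of the dehydrogenases that use other substrates, CYB2 and GUT2 fell by more than any gene but NDE2. CYB2 is cytochrome b2, the L-lactate dehydrogenase of the intermembrane space that hands electrons to cytochrome c. It read 9.75, 9.01, 9.10 and 9.42 on the controls and 7.21 to 8.45 on the 12 extract arrays, with a median of 7.98. All 14 extract arrays, USA6 included, lay below every control. CYB2 was 2.55-fold lower, a log2 difference of -1.35 ± 0.20, and it alone passed Bonferroni adjustment, at 0.0251 (Benjamini-Hochberg, 0.000138). It was at -1.16 ± 0.18 within batch 2, where the Bonferroni-adjusted p was 0.122. The Bonferroni call was also lost without any 1 of 7 arrays, namely the second control of batch 1, either control of batch 2, the second USA2, either USA7 or the second EUROPE11 array.

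GUT2, the mitochondrial glycerol 3-phosphate dehydrogenase that shuttles cytosolic reducing power to ubiquinone, read 11.01, 10.45, 10.39 and 10.56 on the controls. Its extract arrays ran from 8.95 to 10.25 with a median of 9.46, again with no overlap. It was 2.11-fold lower, -1.07 ± 0.20 on the log2 scale, with an adjusted p of 0.000903. DLD1, the D-lactate dehydrogenase, was -0.09 ± 0.12 with an adjusted p of 0.606, and 4 of 12 extract arrays lay below its lowest control.

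**Figure D1:**
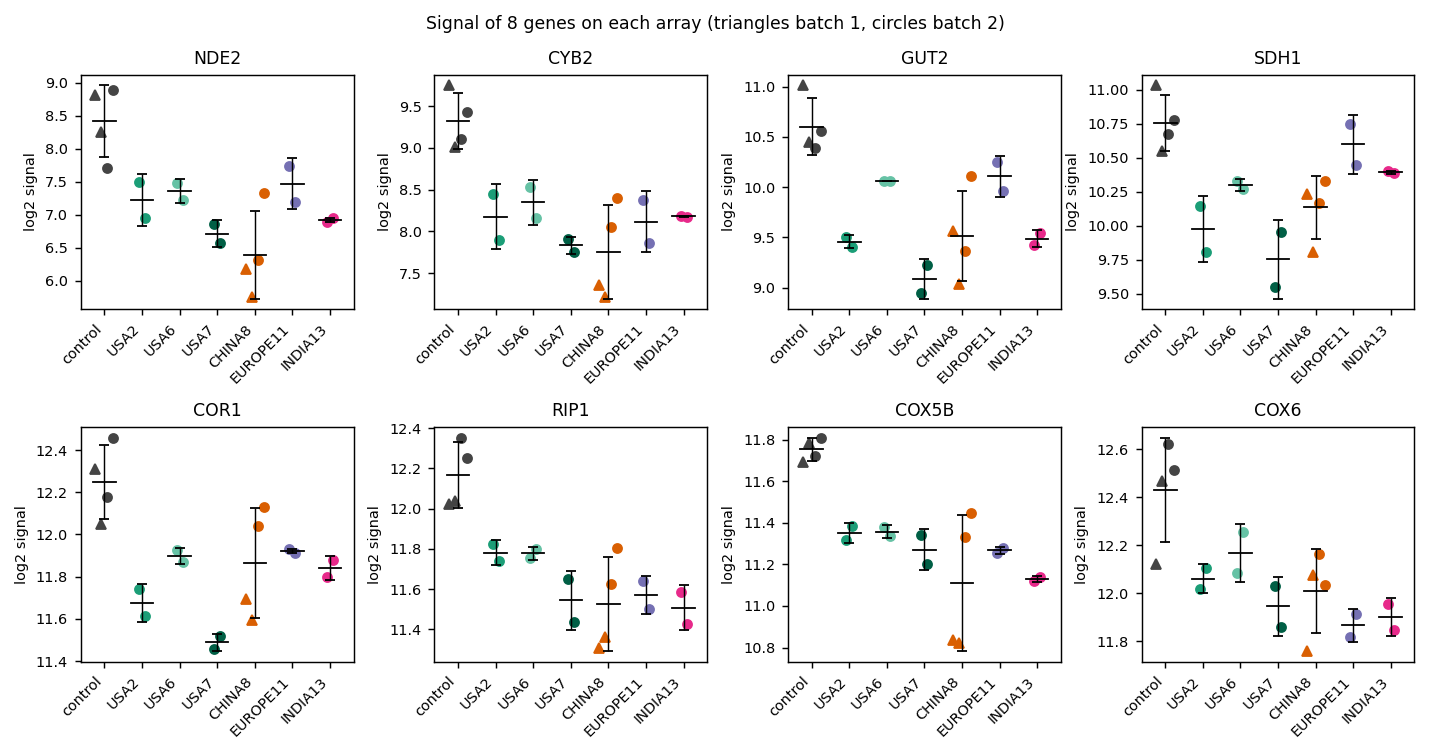
Log2 signal of 8 respiratory genes on each of the 18 arrays (y axis) by group (x axis). Points are arrays, triangles from batch 1 and circles from batch 2, with the group mean and SD in black. CYB2, GUT2, RIP1 and COX5B show no overlap of controls and the extract arrays.

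Complex II, succinate dehydrogenase, joins the citric acid cycle to the chain, and 3 of its 4 genes were lower. SDH2 encodes the iron-sulfur subunit. Its controls read 11.83, 11.65, 11.70 and 11.84, and the extract arrays 10.88 to 11.62 with a median of 11.33, with no overlap. The difference was -0.43 ± 0.12 with an adjusted p of 0.0107, which became 0.0653 within batch 2. SDH1, the flavoprotein, was -0.59 ± 0.17 (adjusted p = 0.0140, and 0.127 within batch 2), with 11 of 12 extract arrays below the lowest control. The membrane anchors SDH4 and SDH3 were at -0.35 ± 0.11 (adjusted p = 0.0304) and -0.26 ± 0.16 (adjusted p = 0.230). The SDH4 call was lost within batch 2 (adjusted p = 0.297). Without the control and CHINA8 arrays of batch 2 the calls of SDH1, SDH2 and SDH4 were all lost. For SDH3 the second control of batch 2 read 11.75, and 6 of the 12 extract arrays lay above it.

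Complex III, the cytochrome bc1 complex, had 5 of 9 genes lower. RIP1, the Rieske iron-sulfur protein that takes electrons from ubiquinol, gave the smallest p of the complex. It read 12.02, 12.04, 12.35 and 12.25 on the controls and 11.31 to 11.82 on the extract arrays, with a median of 11.61 and no overlap with any of the 14 extract arrays. RIP1 was 1.51-fold lower, -0.59 ± 0.10 on the log2 scale, with an adjusted p of 0.000283. The array carries 3 further probe sets for RIP1 among its control features, at the 5′ end, middle and 3′ end of the transcript, which were read after the data had been seen. They gave -0.59 ± 0.10, -0.57 ± 0.10 and -0.55 ± 0.09, from the same RNA, with Benjamini-Hochberg adjusted p-values of 0.000286, 0.000485 and 0.000476. On each of the 3 the 12 extract arrays lay below all controls.

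COR1, a core subunit, read 12.31, 12.05, 12.18 and 12.46 on the controls and 11.46 to 12.13 on the extract arrays, with a median of 11.77. The second CHINA8 array of batch 2 was the 1 extract array above the lowest control. COR1 was -0.47 ± 0.11 with an adjusted p of 0.00509. QCR8, a ubiquinol-binding subunit, read 12.36, 12.50, 12.62 and 12.56 on the controls and 11.92 to 12.35 on the extract arrays, with a median of 12.18. It was -0.35 ± 0.07 (adjusted p = 0.00204), and the groups did not overlap. QCR7 and QCR10, both small subunits, were -0.28 ± 0.08 (adjusted p = 0.0117) and -0.35 ± 0.12 (adjusted p = 0.0365). The QCR10 call was lost within batch 2 (adjusted p = 0.0567). Without the control and CHINA8 arrays of batch 2 the calls of QCR7 and QCR10 were lost. The 4 genes that did not pass were QCR2 at -0.39, CYT1, the cytochrome c1, at -0.33, QCR6 at -0.26 and QCR9 at -0.25, with adjusted p-values from 0.0717 to 0.169.

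The cytochrome c genes, which encode the mobile carrier between complexes III and IV, did not pass. CYC1, the major isoform in air, read 11.11, 11.28, 11.38 and 11.04 on the controls and 10.84 to 11.62 on the extract arrays, with a median of 11.23. Its difference was 0.01 ± 0.12, the only positive value among the 43. CYC7, the isoform favoured at low oxygen, read 12.46 and 12.22 on the batch 1 controls and 11.84 and 11.77 on the batch 2 controls. Its extract arrays ran from 10.63 to 12.42 with a median of 11.63. CYC7 was at -0.54 ± 0.25 with an adjusted p of 0.107, which was 0.0472 once batch was a block. Within batch 2 its value was -0.10, with an adjusted p of 0.784.

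Complex IV, cytochrome c oxidase, had 5 of 9 genes lower. COX5B, the subunit 5 isoform used at low oxygen, read 11.69, 11.78, 11.72 and 11.81 on the controls and 10.82 to 11.45 on the extract arrays, with a median of 11.27. All 14 extract arrays lay below every control. COX5B was 1.46-fold lower, -0.55 ± 0.10 on the log2 scale, with an adjusted p of 0.000814. COX5A, the isoform used in air, read 12.22, 12.09, 12.25 and 12.33 on the controls and 11.94 to 12.47 on the extract arrays, with a median of 12.22. It was at -0.03 ± 0.09 with an adjusted p of 0.803.

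COX6, a subunit needed for assembly of the oxidase, read 12.12, 12.47, 12.62 and 12.51 on the controls and 11.76 to 12.16 on the extract arrays, with a median of 11.99. The first control array of batch 1 was low and overlapped 1 extract array. COX6 was -0.47 ± 0.09 with an adjusted p of 0.000888. COX8 read 12.26, 12.68, 12.78 and 12.58 on the controls and 11.99 to 12.45 on the extract arrays, with a median of 12.14. It was -0.40 ± 0.10 with an adjusted p of 0.00482, and 8 of 12 extract arrays lay below the lowest control. COX4 fell by 0.28 ± 0.08 and COX12 by 0.25 ± 0.08, with adjusted p-values of 0.0173 and 0.0259. Without the control and CHINA8 arrays of batch 2 the calls of COX4, COX8 and COX12 were lost. COX7, COX13 and COX9 were at -0.20, -0.19 and -0.06 and did not pass.

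The ATP synthase had 7 of 13 genes lower, and the genes of its α, β and γ subunits did not pass with the extracts pooled. ATP18, the membrane subunit i, gave the smallest p. It read 11.81, 12.38, 12.36 and 12.30 on the controls and 11.64 to 12.02 on the extract arrays, with a median of 11.85. The low control was the first of batch 1, and the other 3 controls lay above all extract arrays. ATP18 was -0.38 ± 0.09 with an adjusted p of 0.00459. INH1, the peptide that inhibits ATP hydrolysis by the enzyme, was -0.50 ± 0.14 (adjusted p = 0.0154), and all 14 extract arrays lay below every control, whose lowest value was 12.22. ATP14 fell by 0.48 ± 0.15 with an adjusted p of 0.0223, although its controls spread from 11.26 to 12.38 and only 5 extract arrays lay below the lowest. ATP15, ATP4, ATP16 and ATP5 fell by 0.33, 0.26, 0.27 and 0.25, with adjusted p-values of 0.0104, 0.0077, 0.0250 and 0.0394. The calls of ATP5, ATP15 and, in complex IV, COX12 were lost within batch 2. Without the control and CHINA8 arrays of batch 2 all 7 calls of the ATP synthase were lost. ATP1 and ATP2 (α and β, of the catalytic head) and ATP3 (γ, of the rotating stalk) were at -0.12 ± 0.08, -0.25 ± 0.11 and -0.20 ± 0.11, with adjusted p-values of 0.277, 0.0849 and 0.176. ATP7, ATP20 and ATP17 were at -0.27, -0.25 and -0.15 and did not pass.

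In 3 paralog pairs NDE2, COX5B and CYC7 lay further below control than NDE1, COX5A and CYC1. The difference between paralogs was taken within each array and set against the controls, with an exact two-sided permutation test of 12 extract against 4 control arrays over 1820 arrangements and Benjamini-Hochberg adjustment over 3 pairs. The arrangements ignored batch and counted arrays of the same extract as separate. A shift shows unequal change within the array only. Relative to the control mean, COX5A minus COX5B lay between -0.17 and 0.06 on the 4 controls and between 0.37 and 0.66 on the 12 extract arrays, above every control, and at 0.21 and 0.26 with USA6. The shift was 0.51 (SD 0.11 in both groups). Its exact p was 0.000549, the smallest that 1820 arrangements can give, and its adjusted p 0.00165. NDE1 minus NDE2 lay between -0.46 and 0.73 on the controls and between 0.66 and 2.60 on the extract arrays. The first control of batch 2 was the 1 control above the lowest extract array. The shift was 1.50 (SD 0.52 in control and 0.65 in extract arrays), with an exact p of 0.00165 and an adjusted p of 0.00247. Within batch 2 it was 1.17 with an adjusted p of 0.0682.

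CYC1 minus CYC7 shifted by 0.55 (exact p = 0.0385, adjusted p = 0.0385), and its groups overlapped. Relative to the control mean, controls ran from -0.48 to 0.41 and extract arrays from -0.27 to 1.28, highest on the batch 1 CHINA8 arrays. Within batch 2 the shift was 0.15 with an adjusted p of 0.485, and with USA6 added it was 0.42 with an adjusted p of 0.148. The COX5A minus COX5B shift was 0.43 within batch 2 and 0.47 with USA6.

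**Figure D2:**
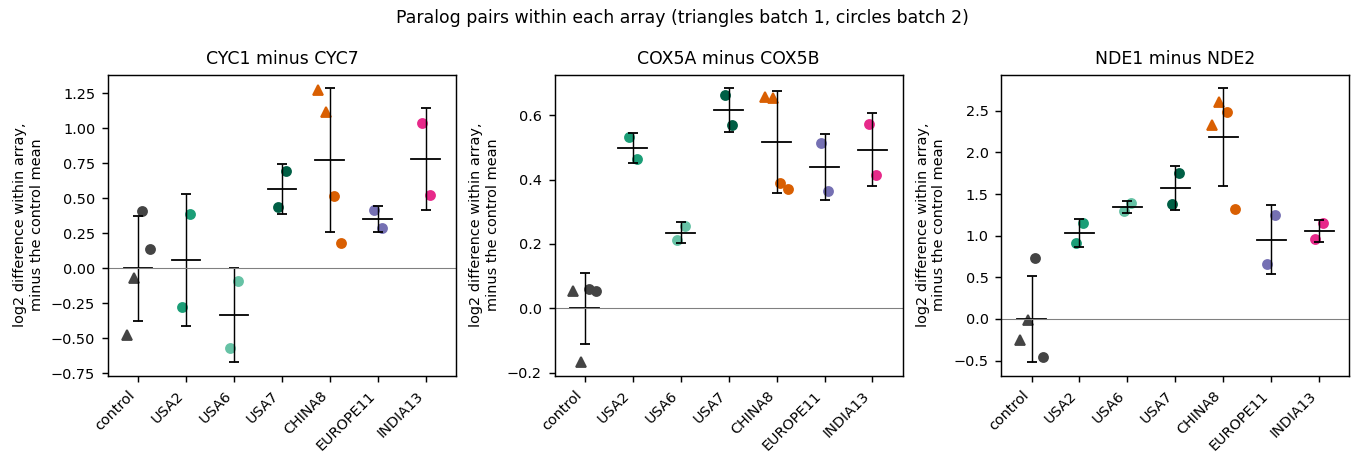
Within-array log2 difference of 3 paralog pairs minus the mean of the 4 controls (y axis) by group (x axis). Points are arrays, triangles from batch 1 and circles from batch 2, with group mean and SD. COX5A minus COX5B lies above the controls on every extract array, USA6 included, while CYC1 minus CYC7 overlaps them.

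To ask which extracts carried the change, a single limma model of the 18 arrays estimated each extract's difference from control, with Benjamini-Hochberg adjustment. CHINA8 had 31 of 43 genes lower (72.1%), where 19.9% of all probe sets were lower. USA7 had 19 (44.2%, against 18.9% of all), INDIA13 17 (39.5%, against 14.4%), EUROPE11 12 (27.9%, against 9.89%) and USA2 7 (16.3%, against 8.36%). USA6 had 0, where 2.88% of all probe sets were lower. An unadjusted limma p under 0.05 was found for 17 of the 43 genes with USA6, and for 1213 of all 5763 probe sets. No gene was higher with any extract. CHINA8 has 4 arrays and the others 2, so the counts are not measures of the size of the change. The median differences were -0.37 for CHINA8, -0.34 for USA7, -0.32 for INDIA13, -0.28 for EUROPE11, -0.25 for USA6 and -0.21 for USA2, each beside a median of all probe sets between 0.00 and 0.03.

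These counts moved with the batch. With batch as a block they were 34 of 43 for CHINA8, 25 for USA7, 24 for INDIA13, 20 for EUROPE11, 21 for USA2 and 17 for USA6. The shares of all probe sets called lower were then 22.9%, 23.7%, 19.9%, 15.7%, 16.4% and 7.91% in that order. Within batch 2, against its 2 controls, the counts were 25 for CHINA8, 26 for USA7, 25 for INDIA13, 22 for EUROPE11, 18 for USA2 and 16 for USA6. The shares of all probe sets were then 14.3%, 23.8%, 20.9%, 16.4%, 16.7% and 7.77%. In that fit the 18S rRNA measure was -1.54 to -1.12 on the control and CHINA8 arrays. It was -2.83 to -2.34 on the 10 arrays of USA2, USA6, USA7, EUROPE11 and INDIA13. For these extracts the extract and the RNA measure cannot be told apart within batch 2. Without the 4 control and CHINA8 arrays of batch 2 the counts were 24 for CHINA8, 18 for USA7, 10 for INDIA13, 7 for EUROPE11, 7 for USA2 and 3 for USA6, beside 19.0%, 18.0%, 13.0%, 9.04%, 8.12% and 4.82% of all probe sets. The genes of USA6 called with batch as a block and in batch 2 alone included CYB2, at -1.18 and -0.92, and RIP1, at -0.55 and -0.52.

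**Figure D3:**
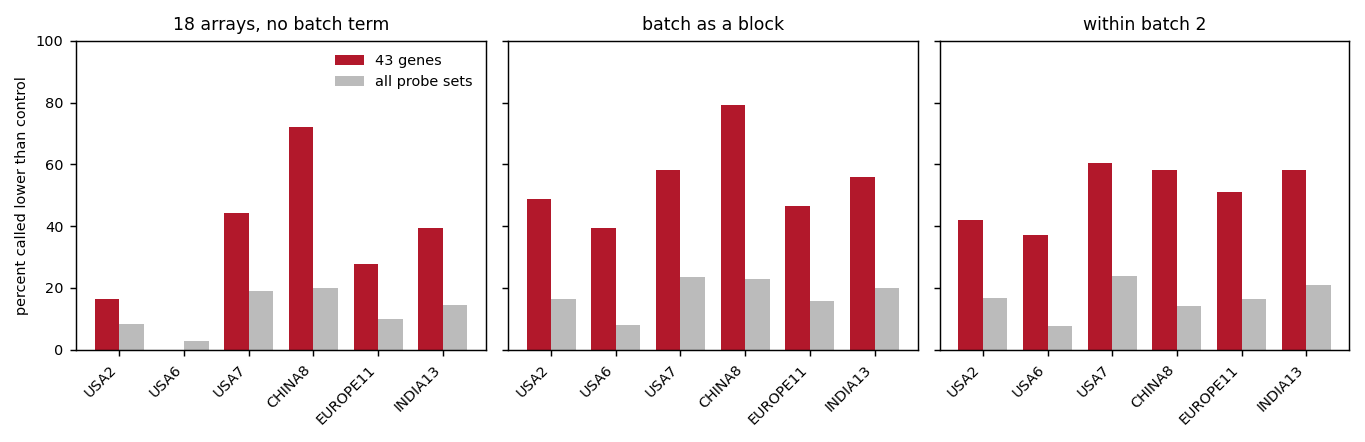
Percent called lower than control (y axis) for each extract (x axis) under 3 fits: no batch term over 18 arrays, batch as a block, and batch 2 alone. Red bars are the 43 respiratory genes and grey bars all 5763 probe sets; USA6 goes from 0 genes to 17 and 16.

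CYB2 was the only gene lower with 5 extracts, and its log2 differences ran from -1.57 ± 0.25 with CHINA8 through -1.49 ± 0.30 with USA7, -1.20 ± 0.30 with EUROPE11, -1.15 ± 0.30 with USA2 and -1.14 ± 0.30 with INDIA13 to -0.97 ± 0.30 with USA6. Neighbours in that order differed by less than their errors, and an F-test among the extracts gave an adjusted p of 0.481. NDE2 ran from -2.03 ± 0.31 with CHINA8 to -0.95 ± 0.38 with EUROPE11. It passed with CHINA8 (adjusted p = 0.000156), USA7 (0.00332), INDIA13 (0.00950) and USA2 (0.0402), not with USA6 (0.113) or EUROPE11 (0.0824). Its arrays read 6.18, 5.74, 6.32 and 7.32 with CHINA8, 6.86 and 6.56 with USA7, 6.89 and 6.94 with INDIA13, 7.50 and 6.95 with USA2, 7.48 and 7.22 with USA6, and 7.74 and 7.19 with EUROPE11. The second CHINA8 array of batch 2 was well above the other 3.

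GUT2 passed with USA7 at -1.52 ± 0.23, with USA2 at -1.15 ± 0.23, with INDIA13 at -1.12 ± 0.23 and with CHINA8 at -1.09 ± 0.19. It was at -0.54 with USA6 and -0.49 with EUROPE11. RIP1, COX5B, COX6 and QCR8 each passed with the same 4 extracts, USA7, CHINA8, EUROPE11 and INDIA13. Their largest falls were 0.66 (INDIA13), 0.64 (CHINA8), 0.57 (EUROPE11) and 0.41 (EUROPE11) in that order. After CYB2, the largest fall called for EUROPE11 was that of RIP1, by 0.59 ± 0.13 with an adjusted p of 0.00782. Only CYC1, COX5A and ATP7 passed with no extract, while 18 genes passed with 1 extract, 7 with 2, 7 with 3 and 7 with 4. The same numbers were not counted over all probe sets, so these cannot be set against the array as a whole. ATP1, ATP2 and ATP3, which did not pass with the extracts pooled, were lower with USA7, and ATP2 also with USA2. The 2 USA7 arrays were apart for ATP1, at 13.07 and 13.39, beside 13.51 to 13.63 on the controls. Without the first USA7 array the difference from control was -0.18 for ATP1 and -0.39 for ATP3. By complex, the genes lower with CHINA8 were 4 of 4 of complex II, 6 of 9 of complex III, 8 of 9 of complex IV and 8 of 13 of the ATP synthase. For USA7 these numbers were 2, 6, 2 and 4, for INDIA13 1, 6, 4 and 1, and for EUROPE11 0, 3, 4 and 4. For USA2 they were 1, 2, 0 and 1, and USA6 had 0 in each. Of all probe sets 19.9% were lower with CHINA8, 18.9% with USA7, 14.4% with INDIA13, 9.89% with EUROPE11, 8.36% with USA2 and 2.88% with USA6. Of the ATP synthase genes 7.69% were lower with INDIA13 and with USA2, below those shares. So were the complexes at 0, and complex IV with USA7, at 22.2%, was near its share. The numbers by complex also moved with the batch. With batch as a block the ATP synthase genes lower were 11 for CHINA8, 8 for USA7, 6 for INDIA13 and 6 for EUROPE11. In batch 2 alone they were 7, 8, 8 and 8 in that order. For EUROPE11 the genes of complex III were 7 of 9 in both of these fits. CYC7 passed with CHINA8 only, at -1.02 ± 0.21 (limma adjusted p = 0.0016), and that call was lost within batch 2, where it was at -0.40 (adjusted p = 0.148).

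**Figure D4:**
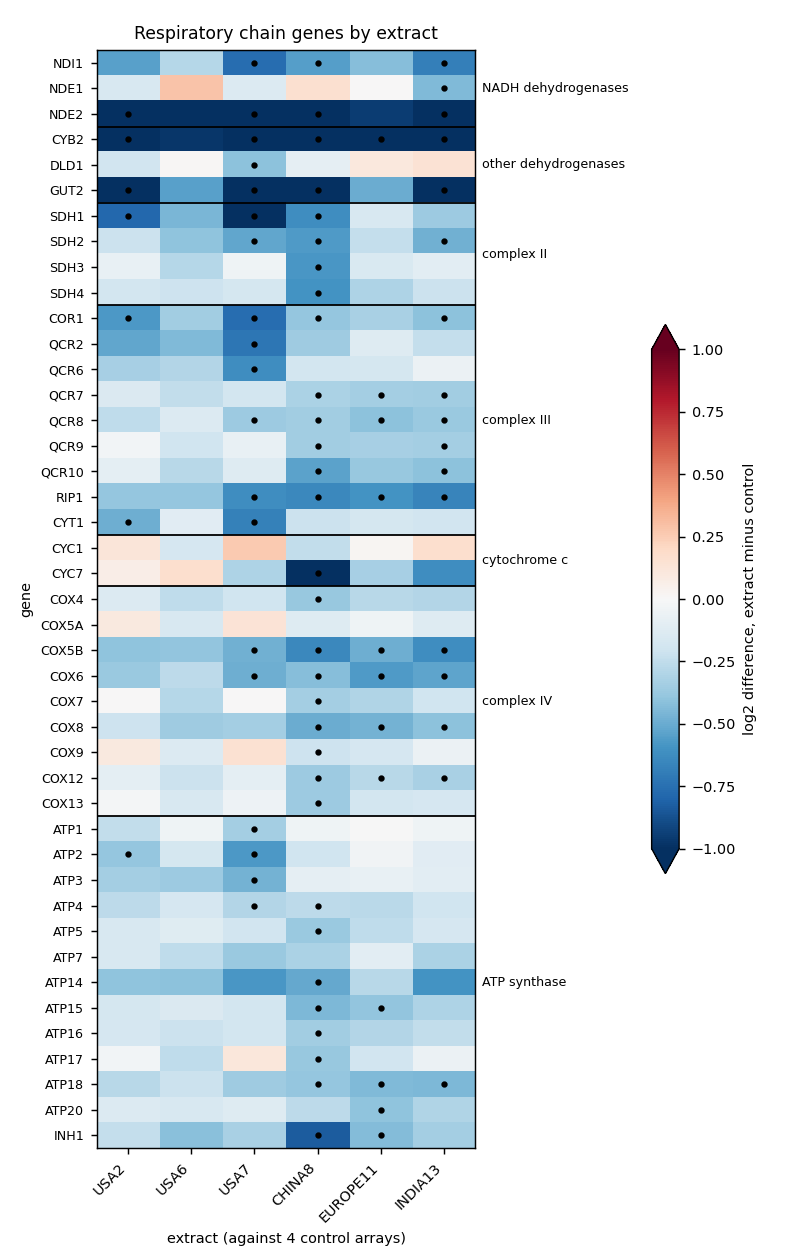
Log2 difference from control (colour, clipped at 1 either way) of the 43 genes (rows, by complex) for each extract (columns). Black dots mark an adjusted p under 0.05; they are densest for CHINA8 (31 genes) and absent for USA6.

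An F-test asked whether the 6 extracts differed from each other, and 13 of the 43 genes passed (30.2%), where 29.4% of all probe sets did. The share was close to that of the array as a whole. It was 16 of 43 once batch was a block (50.8% of all probe sets) and 16 in batch 2 alone (53.7%). Without the control and CHINA8 arrays of batch 2 it was 17 (32.4%). Leaving out the first USA7 array gave 2 of 43, where 13.9% of all probe sets passed. ATP2, the catalytic β subunit, gave the smallest p of the 13. It read 12.40 and 12.49 with USA7, 12.70 and 12.57 with USA2, 12.89 and 12.81 with USA6, 12.84, 12.65, 12.93 and 12.87 with CHINA8, 12.83 and 12.99 with INDIA13, and 13.04 and 12.94 with EUROPE11 (adjusted p = 0.0163). The controls were 13.11, 12.88, 12.99 and 13.11, and the USA7 and USA2 arrays were low. NDE1 was lowest with INDIA13, at 11.27 and 11.51, and read 12.19 and 12.03 with USA6 (adjusted p = 0.0165), and the INDIA13 difference from control of -0.44 ± 0.13 passed (adjusted p = 0.0199).

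CYC7 read 10.63, 10.77, 11.19 and 11.62 with CHINA8, 11.44 and 11.46 with INDIA13, 11.73 and 11.76 with EUROPE11, 11.90 and 11.63 with USA7, and 12.42 and 11.85 with USA2 (adjusted p = 0.0203). With USA6 it read 12.42 and 12.05, above both batch 2 controls, at 11.84 and 11.77, and not above the higher batch 1 control, at 12.46. Within batch 2 the USA6 difference was 0.43 (limma adjusted p = 0.153). SDH4, a membrane anchor of complex II, read 11.64 to 11.78 on the 4 CHINA8 arrays and 11.82 to 12.26 on the other 10 extract arrays (adjusted p = 0.0317). COX9, a small subunit of complex IV, read 12.07, 12.16, 12.15 and 12.19 with CHINA8 and 12.57 and 12.42 with USA7 (adjusted p = 0.0276). No gene of complex III passed, and QCR10 had its smallest p, 0.0866 after adjustment. With batch as a block 3 of its 9 genes passed (COR1, QCR6 and CYT1), and in batch 2 alone 4 (those and QCR2).

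USA7 and CHINA8 were then compared directly, a pair chosen after these values were seen. USA7 was higher in 10 genes and lower in 5 of 43, where 19.0% of all probe sets were higher and 17.2% lower, so the genes did not stand apart in number. The 5 genes lower with USA7 were CYT1, ATP3, ATP2, COR1 and ATP1, by 0.46 ± 0.15, 0.39 ± 0.12, 0.38 ± 0.09, 0.38 ± 0.14 and 0.30 ± 0.08. They encode cytochrome c1, a core protein of complex III, and the α, β and γ subunits of the ATP synthase. The 10 higher genes were CYC7, SDH3, CYC1, INH1, ATP17, SDH4, QCR10, COX9, COX13 and COX12, from 0.71 ± 0.26 for CYC7 to 0.26 ± 0.09 for COX12.

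With batch as a block 7 genes were higher (24.3% of all probe sets) and 8 lower (24.4%), and within batch 2 the numbers were 8 (25.0%) and 12 (25.8%). CYT1, ATP3, ATP2, COR1 and ATP1 passed in all 3 fits, as did SDH3, SDH4, CYC1, COX9, COX13 and ATP17. CYC7, INH1, QCR10 and COX12 did not pass within batch 2.

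**Figure D5:**
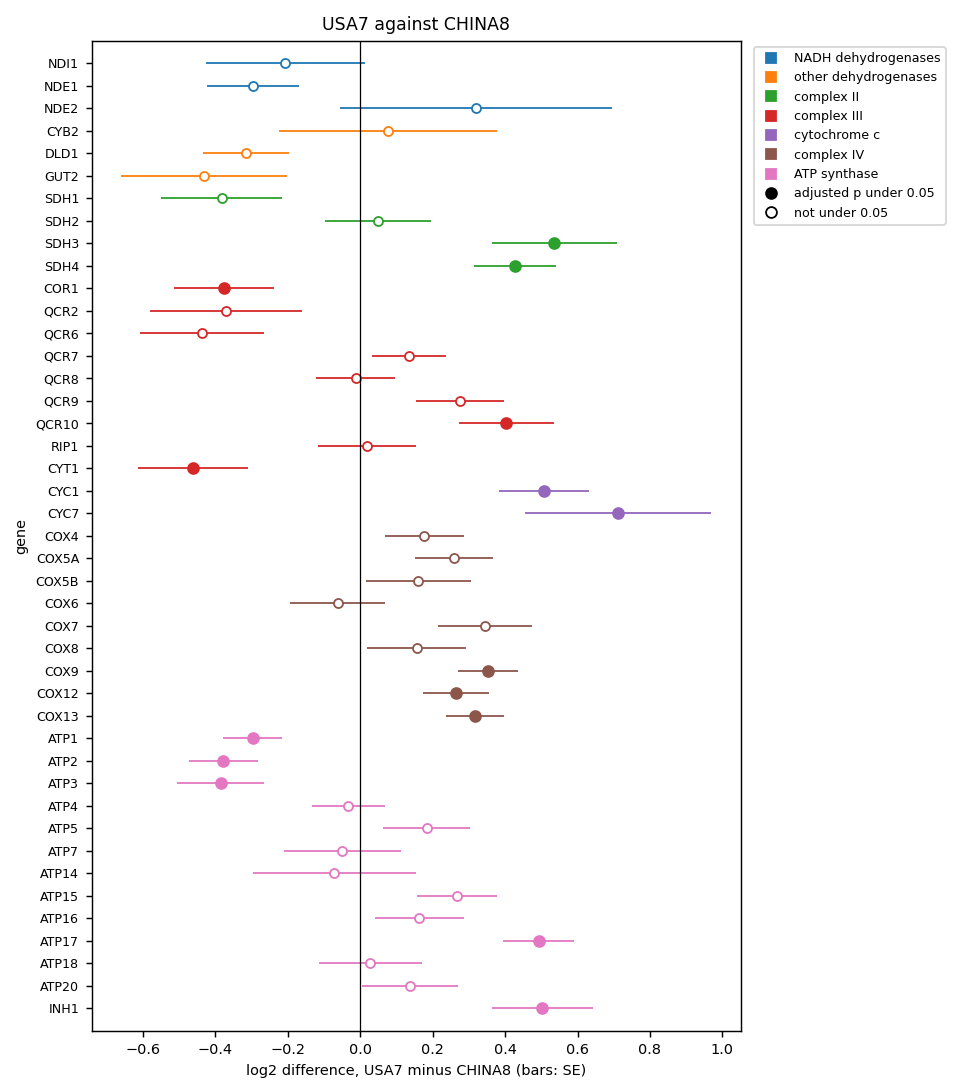
Log2 difference USA7 minus CHINA8 (x axis, bars are SE) for the 43 genes (y axis), coloured by complex. Filled points have an adjusted p under 0.05: 10 genes on the right, higher with USA7, and 5 on the left, among them ATP1, ATP2 and ATP3.

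CHINA8 was the 1 extract present in both batches, so its response could be compared between them. By an interaction term in limma over 8 arrays, 0 of the 43 genes passed, as did 0.0% of all 5763 probe sets, while 3 of 43 and 623 of 5763 had an unadjusted p under 0.05. Those 3 were CYC7, COX5B and CYB2. CYC7 was -1.64 in batch 1 and -0.40 in batch 2, a difference of 1.25 ± 0.22 with a limma adjusted p of 0.286. COX5B was -0.91 and -0.38, and CYB2 -2.09 and -1.04. NDE2 was -2.57 and -1.48, and RIP1 was -0.70 and -0.59. Over all 43 genes the difference from control was more negative in batch 1 in 27 and in batch 2 in 16, among them 8 of the 13 ATP synthase genes. Of all 5763 probe sets 2987 were more negative in batch 2. ATP14 was -0.22 in batch 1 and -0.79 in batch 2, and COX8 was -0.35 and -0.65.

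Genes that build and supply the chain were read from lists drawn up for these processes, against control over the same 12 and 4 arrays by Benjamini-Hochberg adjustment. The shares of all probe sets lower are those given above, as is the share higher with the extracts pooled. Of 27 assembly factors of cytochrome oxidase 9 were lower and 1 higher, with a median of -0.20. The count was 18 lower with CHINA8 (median -0.58), 8 with EUROPE11 (-0.20), 7 with USA7 (-0.00), 4 with USA2 (-0.05), 4 with INDIA13 (-0.05) and 1 with USA6 (-0.21), beside 0 to 2 higher, and whether the extracts differed in this was not tested. SCO2, a relative of the copper chaperone SCO1, fell from control values of 9.68 to 10.33 to extract values of 8.84 to 9.44, by 0.71 ± 0.12 (adjusted p = 0.000305). MSS2, needed for membrane insertion of a mitochondrially made oxidase subunit, fell by 0.81 ± 0.14, and COX17, the copper carrier, by 0.54 ± 0.11. COX19, a relative of COX17, was the 1 that rose, by 0.37. Of 13 assembly factors of complexes II and III and cytochrome c, 4 were lower and 0 higher, with a median of -0.28. By extract 10 were lower with CHINA8 (median -0.47), 4 with EUROPE11, 3 with USA7, 1 with USA2, 1 with INDIA13 and 0 with USA6, and 1 was higher with USA7 and with INDIA13. CBP6, which with CBP3 promotes synthesis of cytochrome b, fell by 0.85 ± 0.12 (adjusted p = 8e-05), CBP3 by 0.32 ± 0.08, and SDH7 by 0.61 ± 0.13.

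Of 11 assembly factors and regulators of the ATP synthase 5 were lower and 0 higher, with a median of -0.22. By extract 9 were lower with CHINA8, 5 with USA7, 3 with INDIA13, 2 with EUROPE11, 2 with USA2 and 0 with USA6. STF1 and STF2, stabilizing factors of the enzyme bound to its inhibitor, fell by 0.92 ± 0.14 and 0.38 ± 0.09, and FMC1, an assembly factor, by 0.63 ± 0.12. STF1 read 12.04 to 12.44 on the controls and 10.79 to 11.75 on the extract arrays. Of 19 activators of mitochondrial gene expression 5 were lower and 0 higher, with a median of -0.10, among them RPO41, the mitochondrial RNA polymerase, by 0.34 ± 0.08. PET54 and NCA2 fell by 0.29 and 0.33. Of 11 genes of ubiquinone synthesis 3 were lower and 0 higher, with a median of -0.14, namely COQ9, COQ11 and COQ3, by 0.39, 0.36 and 0.34. With CHINA8, which gave 4 of the 12 extract arrays, 7 of these 11 genes and 8 of the 19 activators were lower, and with each other extract at most 3 and 5. The 7 mitochondrially encoded subunits had no match in the annotation and were not analysed here.

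Of 16 carriers of the inner membrane 5 were higher and 2 lower, with a median of 0.09. By extract the numbers higher and lower were 4 and 4 with CHINA8, 6 and 3 with USA7 and 6 and 1 with INDIA13. They were 4 and 2 with USA2, 3 and 0 with EUROPE11 and 1 and 1 with USA6. Of all 5763 probe sets 1135, 1173, 812, 607, 707 and 235 were higher in that order. OAC1, the oxaloacetate carrier, rose by 0.99 ± 0.17 (adjusted p = 0.000383), with extract values of 11.38 to 12.45, all above every control. YHM2, a citrate and oxoglutarate carrier, and ODC2, an oxodicarboxylate carrier, rose by 0.33 ± 0.06 and 0.37 ± 0.09, while ODC1, the paralog of ODC2, fell by 0.46 ± 0.13. AAC3, the ADP/ATP carrier isoform of low oxygen, rose by 0.35 ± 0.12 and AAC1 fell by 0.40. Of 14 Hap, heme and glucose regulators 2 were lower and 2 higher, with a median of -0.12, where 14.5% of all probe sets were lower and 15.4% higher. By extract the numbers lower and higher were 5 and 1 with USA7, 4 and 0 with INDIA13 and 1 and 2 with CHINA8. They were 1 and 1 with USA2, 1 and 0 with EUROPE11 and 0 and 0 with USA6. CAT8, an activator of genes used after glucose is gone, fell from control values of 6.32 to 7.11 to extract values of 5.29 to 6.44, by 1.04 ± 0.19 (adjusted p = 0.000845). MIG1, a repressor of glucose-repressed genes, fell by 0.45 ± 0.15. RTG3 rose by 0.28 ± 0.08 and HXK2, the hexokinase that takes part in glucose repression, by 0.20 ± 0.06.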

How the data were processed

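RNA of 18 cultures was labelled with biotin and hybridized to Affymetrix Yeast Genome 2.0 arrays. The log2 values the authors deposited came from RMA (background correction, quantile normalization between arrays and 1 summary value a probe set). RMA and limma are named in the submitters' processing notes, without versions. Values were used as deposited, with 137 control probe sets left out and no filter on dim ones. Of 5763 probe sets, 5498 had 1 gene symbol in the platform annotation and 265 had none; all 43 symbols matched RefSeq names. The number of arrays limits the precision. Every statistical fit used R 4.3.3 with limma 3.58.1 (lmFit, eBayes), tested on simulated data; a gene was called at an adjusted p under 0.05. Tables and the exact permutation tests were made in python 3.11.15.

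The genes, lists and comparisons were chosen with earlier results of these data known. Genes given in full were, in each complex, those of smallest p for all extracts and for the F-test, the 10 of smallest p, the largest falls of each extract and the paralog pairs, and up to 3 genes of each list. Further genes were named for the oxidase assembly factors, the carriers and the regulators, outside that rule. The labels name biological duplicates. No deposited column was left unmapped, and no arrays were identical. Alternatives covered scaling, filters, the variance model, adjustment, batch, replicate number and each array left out.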

Additional observations from a re-analysis of the deposited data

Results flagged for a closer look

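Among 86 groups of 4 arrays (43 genes in control and CHINA8), 4 held an array far from the other 3 by Dixon's ratio, which chance gives in about 1 in 20 groups. CYT1 read 11.48 on the second control of batch 1 and 11.79 to 11.85 on the others, and ATP18 read 11.81 on the first control of batch 1 and 12.30 to 12.38 on the others. The second CHINA8 array of batch 1 read high for COX8, at 12.24 against 12.01 to 12.05, and for ATP5, at 12.32 against 12.18 to 12.19.

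The 13 genes that differed among the extracts by the limma F-test had adjusted p-values of 0.0163 for ATP2, 0.0165 for NDE1, 0.0177 for ATP17, 0.0203 for CYC7, 0.0274 for INH1, 0.0276 for COX9, 0.0297 for COX13, 0.0317 for SDH4, 0.0320 for CYC1, 0.0343 for SDH1, 0.0432 for GUT2, 0.0433 for ATP1 and 0.0437 for DLD1. Their share of the 43 genes, 30.2%, was close to the 29.4% of all probe sets.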

How the results depend on the processing

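Of 110 calls of a gene in a comparison, 3252 values were computed under the alternatives, and 2844 kept call and direction, 408 kept the direction and lost the call, and 0 reversed. A gene was called higher in 3 fits only, CYC1 with USA7 without either INDIA13 array and with INDIA13 without its second array. The Bonferroni count of 1 for all extracts became 2 with equal array medians, 2 with an intensity trend in the variance, 3 with batch as a block, 3 with the replicate block, 0 within batch 2 and 0 without the control and CHINA8 arrays of batch 2. The Benjamini-Hochberg count of 24 became 9 without those arrays. With Holm adjustment it became 1, CHINA8 1, and USA2, USA7, EUROPE11, INDIA13 and the F-test 0. USA2, 7 in the main model, had 11 with equal medians, 11 with the trend, 21 with batch as a block, 18 within batch 2, 21 with the replicate block and 3 with only control and that extract fitted. USA6, 0 in the main model, had 17, 16 and 16 with batch as a block, within batch 2 and with the replicate block, and 3 without the control and CHINA8 arrays of batch 2. EUROPE11, 12 in the main model, had 20, 22 and 21 in those 3 fits, 7 without those arrays and 3 fitted alone with control. INDIA13, 17 in the main model, had 27 with the replicate block, 10 without those arrays and 6 fitted alone. The interaction count of 0 became 1 with the replicate block, NDE2, at 1.10 with an adjusted p of 0.0495. The CYC1 minus CYC7 shift of 0.55 lost its call with USA6 (0.42) and within batch 2 (0.15), and that of NDE1 minus NDE2 within batch 2 (1.17, adjusted p = 0.0682).

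Leaving out each array in turn gave 0 to 2 genes by Bonferroni and 15 to 26 by Benjamini-Hochberg for all extracts, 0 to 11 for USA2, 0 to 4 for USA6, 9 to 24 for USA7, 24 to 34 for CHINA8, 0 to 19 for EUROPE11, 5 to 20 for INDIA13, 2 to 13 for the F-test and 0 to 0 for the interaction. Counts moved over 1.5 times for USA2 without its first (4) or second array (0) or the second CHINA8 array of batch 1 (11), and for USA7 without its first (9) or second (10). INDIA13 gave 10 without its first array or the second control of batch 2, and 5 without its second. EUROPE11 gave 2 and 0 without its own arrays, 19 and 6 without the first and second control of batch 1 and 7 without either control of batch 2. USA6 gave 4 without the second CHINA8 array of batch 2, and 1 without the first control of either batch or the second CHINA8 array of batch 1. The F-test gave 5 and 4 without the USA2 arrays, 4 and 5 without the USA6 arrays, 2 without the first USA7, 7 and 4 without the first CHINA8 array of each batch, and 8 without the first EUROPE11 or INDIA13 array. The paralog shifts ran from 0.39 to 0.69 for CYC1 minus CYC7, which lost its call without the first or second control of batch 1, the second control of batch 2, the second USA7, the second CHINA8 of batch 1 or the first INDIA13 array, 0.46 to 0.53 for COX5A minus COX5B and 1.34 to 1.74 for NDE1 minus NDE2. With 2 arrays in most groups, single-extract counts rest on few cultures. Shares of all probe sets moved as well. With the extracts pooled, 10.7% were lower without the first control array of batch 2, against 14.5% in the main model. Shares for the batch fits are given above, and for most fits of this section none is given. A moved count here therefore need not be particular to the respiratory genes.

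The replicate block joined batch and replicate number, and with it CHINA8 had 35 genes, USA7 27, the Benjamini-Hochberg count for all extracts was 28 and the F-test 17. Deviations from group means of control and CHINA8 arrays with the same batch and number correlated at 0.13 to 0.70, which includes the batch difference. Within batches 8 of 22 pairs of same-numbered arrays correlated above 0.1. The only pair in batch 1, control and CHINA8, correlated at 0.75, and those in batch 2 at -0.38 to 0.57. The numbers were not taken to pair cultures, which for batch 1 that pair alone cannot settle.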
